A study of Mus musculus with 6 samples.

Results

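The comparison described here sets Smad4-deficient mouse intestinal organoids given TGF-β (labelled Smad4 KO+TGFb, 2 libraries) against wild-type organoids (labelled WT, 2 libraries), over all genes. The difference holds 2 changes at once, the loss of Smad4 and the added ligand. The remaining 2 of the 6 libraries in the study, Smad4-deficient organoids without the ligand (labelled Smad4 KO), lie between these groups and split the difference into a genotype step (Smad4 KO over WT) and a treatment step (Smad4 KO+TGFb over Smad4 KO). Of 31227 genes in the table, 15503 had enough counts to be tested, and 6155 of them differed between treated Smad4 KO and WT. Both steps passed for 1560 genes, in the same direction for 866 (the steps add up) and in opposite directions for 694 (the steps cancel).

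Organoids are small cultures of epithelium that grow from intestinal stem cells in a gel. All 3 groups grew in a medium that held EGF at 50 ng/ml, the BMP inhibitor Noggin at 100 ng/ml and the Wnt amplifier R-spondin1 at 500 ng/ml, and the ligand was TGF-β at 0.5 nM. Every title carries 48 h, and the wording of the protocol allows either that exposure or 2 days beyond it. WT and Smad4 KO organoids are labelled without the ligand. The sources used here do not give the strain, the age of the animals, the way Smad4 was inactivated or the number of lines or clones. Whether the replicates are different cultures or animals is likewise not stated, and the p-values therefore measure the spread between these libraries alone, and that spread may be technical.

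TGF-β binds a pair of receptor kinases that phosphorylate SMAD2 and SMAD3, and these join SMAD4 to act on genes in the nucleus. SMAD4 is also the partner of the SMADs that BMPs activate, and in the intestinal villus BMP signalling favours mature enterocytes. Signals that do not need SMAD4 run from the same receptors, and cells without SMAD4 can still answer the ligand. YAP and TAZ are the coactivators held back by the Hippo kinases, act through TEAD factors, and in injured intestine accompany a fetal-like repair state marked by genes such as Clu and Anxa1.

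Shown are the 250 bases before the start of 2 genes of the class that rose in both steps and of 2 genes of the class that rose and then fell. The latter pair, Sis and Lct, was chosen after their values were seen. Shared regulation of the genes in a class was not tested. The windows are from RefSeq on GRCm38.p6, 5′ to 3′ on the gene's own strand, which is the minus strand for all 4. Capitals mark matches, on either strand, to the TEAD motif GGAATG in the first pair and to the CDX motif TTTATG in the second pair. The 4 windows were picked by hand, and that all 4 hold the motif of their pair is not a result about the classes. Most windows of their classes do not (67 of 519 and 35 of 514 hold it), so the 4 are not typical of the classes. Ajuba, a LIM protein that binds the Hippo kinase LATS, has its window at chr14:54577662-54577911.
Ajuba: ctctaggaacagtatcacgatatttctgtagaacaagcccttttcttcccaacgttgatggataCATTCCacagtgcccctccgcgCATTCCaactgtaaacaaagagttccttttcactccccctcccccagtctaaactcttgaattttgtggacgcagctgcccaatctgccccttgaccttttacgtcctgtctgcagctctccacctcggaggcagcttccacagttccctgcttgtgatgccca
Anxa1, a phospholipid-binding annexin, has its window at chr19:20390672-20390921.
Anxa1: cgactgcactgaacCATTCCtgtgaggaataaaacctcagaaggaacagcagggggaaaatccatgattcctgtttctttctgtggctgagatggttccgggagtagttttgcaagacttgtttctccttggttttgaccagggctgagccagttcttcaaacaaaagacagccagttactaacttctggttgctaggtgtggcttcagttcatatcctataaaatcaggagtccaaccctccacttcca
Sis, the brush border enzyme sucrase-isomaltase, has its window at chr3:72967864-72968113.
Sis: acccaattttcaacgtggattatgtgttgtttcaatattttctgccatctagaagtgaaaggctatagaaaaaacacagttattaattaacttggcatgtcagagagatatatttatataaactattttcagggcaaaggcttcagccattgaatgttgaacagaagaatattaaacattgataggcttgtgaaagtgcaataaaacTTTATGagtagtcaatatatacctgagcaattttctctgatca
Lct, the enzyme that splits lactose, has its window at chr1:128328319-128328568.
Lct: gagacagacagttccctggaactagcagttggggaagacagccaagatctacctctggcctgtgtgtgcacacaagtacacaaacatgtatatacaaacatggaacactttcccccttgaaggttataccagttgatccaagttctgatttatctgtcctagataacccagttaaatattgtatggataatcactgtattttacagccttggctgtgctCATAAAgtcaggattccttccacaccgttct
RefSeq windows were found for 11517 of 15492 tested symbols. GGAATG was present in 11.03% of all 14676 windows. The classes had 12.91% (rose in both steps), 11.56% (fell in both), 12.06% (rose and then fell) and 11.3% (fell and then rose). In the same order, TTTATG was present in 4.817, 6.069, 6.81 and 8.475%, against 6.44% of all windows. AAAGTCC, a form of the HNF4 motif, was present in 4.046, 4.046, 7.198 and 2.825%, against 3.605% of all. TGANTCA, the AP-1 motif, was present in 8.285, 4.913, 8.56 and 7.91%, against 4.91% of all. None of the 4 motifs contains another. A match to letters is a description and not a binding site.

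Library totals ran from 40.55 to 50.7 M deposited units, or about 10.1 to 12.7 M fragments if 4 units are taken per fragment. Mitochondrially encoded genes held 4.57 to 4.7% of units in WT and Smad4 KO libraries and 3.87 to 3.92% in the treated ones. Smad4, the targeted gene, had 99.3 and 109 CPM (counts per 1e6, scaled by TMM) in WT, 21.7 and 23.1 in Smad4 KO and 25.2 and 29.5 in treated Smad4 KO. Both deficient groups lay below WT without overlap, and the combined difference was 3.82-fold (log2 fold change -1.93 ± 0.10 SE, adjusted p = 3.1e-05). Transcript remained in the deficient groups, and the labels do not say how Smad4 was inactivated. Whether this transcript is intact, and whether it lies in all cells or in some, was not tested. All of these are bulk values, in which fewer cells of a type and less RNA per cell cannot be told apart.

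Between WT and treated Smad4 KO, 3216 genes rose (20.7% of those tested) and 2939 fell (19.0%), together 39.7%. With scaling by total counts alone the majority turned, to 2934 higher and 3310 lower. The test was edgeR's quasi-likelihood test over all 6 libraries at a Benjamini-Hochberg adjusted p under 0.05, and the libraries of the 2 groups did not overlap for 11211 genes (72.3%). Of the calls, 1125 higher and 890 lower genes differed by more than 2-fold. For 504 of these 2015 genes neither step alone passed 2-fold, so the large difference appears only when both are summed. The genotype step had 4704 calls (30.3%), 2620 higher (16.9%) and 2084 lower (13.4%), and with scaling by total counts alone this split became 2125 higher and 2926 lower, with the median log2 fold change of all genes moved from -0.02 to -0.11. The treatment step had 2521 calls (16.3%), 1206 higher (7.78%) and 1315 lower (8.48%), and with total counts alone 1494 higher and 1108 lower. Treatment step calls fell to 1504 or 1534 without treated replicate 1 or 2 and to 1630 without Smad4 KO replicate 2. A direct test of the treatment step minus the genotype step passed for 2367 genes (15.3%), 840 with the treatment step higher (5.42%) and 1527 with it lower (9.85%), and for 1285 or 1337 without Smad4 KO replicate 1 or 2.

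Where no member of a list is said to have risen or fallen in the combined comparison, edgeR and DESeq2 both gave 0 calls and none passed at an unadjusted p under 0.05, unless other counts are given. Combined counts of list members stand against all genes tested, of which 20.7% rose and 19.0% fell.

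The 4 classes of genes that passed in both steps are described by their counts and medians, with no test of the classes, since both step tests choose them. The difference between the steps is a contrast of its own and was tested across all genes. Genes that rose in both steps numbered 516 (3.33% of all tested), and genes that fell in both numbered 350 (2.26%). Genes that rose in the genotype step and fell in the treatment step numbered 518 (3.34%), and the reverse class held 176 (1.14%). Log2 fold changes of the steps sum to the combined one by construction. Both steps also use the same Smad4 KO libraries with opposite sign, so that error in those libraries feeds the classes that cancel. When each step was given its own Smad4 KO library, the rising class held 335 or 337 genes, the falling class 213 or 224, the class that rose and then fell 333 or 338, and the class that fell and then rose 61 or 69. Each assignment taken alone kept 329 of the 518 genes that rose and then fell and 54 of the 176 genes that fell and then rose, and 310 or 306 of the 516 and 199 or 195 of the 350 genes of the classes that add up. Leaving out 1 library lowered the rising class to as few as 292 (without Smad4 KO replicate 2), the falling class to 198 and the class that rose and then fell to 346 (both without Smad4 KO replicate 1), and the class that fell and then rose to 72 (without treated replicate 2). With scaling by total counts alone, the 2 cancelling classes held 416 and 306 genes.

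**Figure D1:**
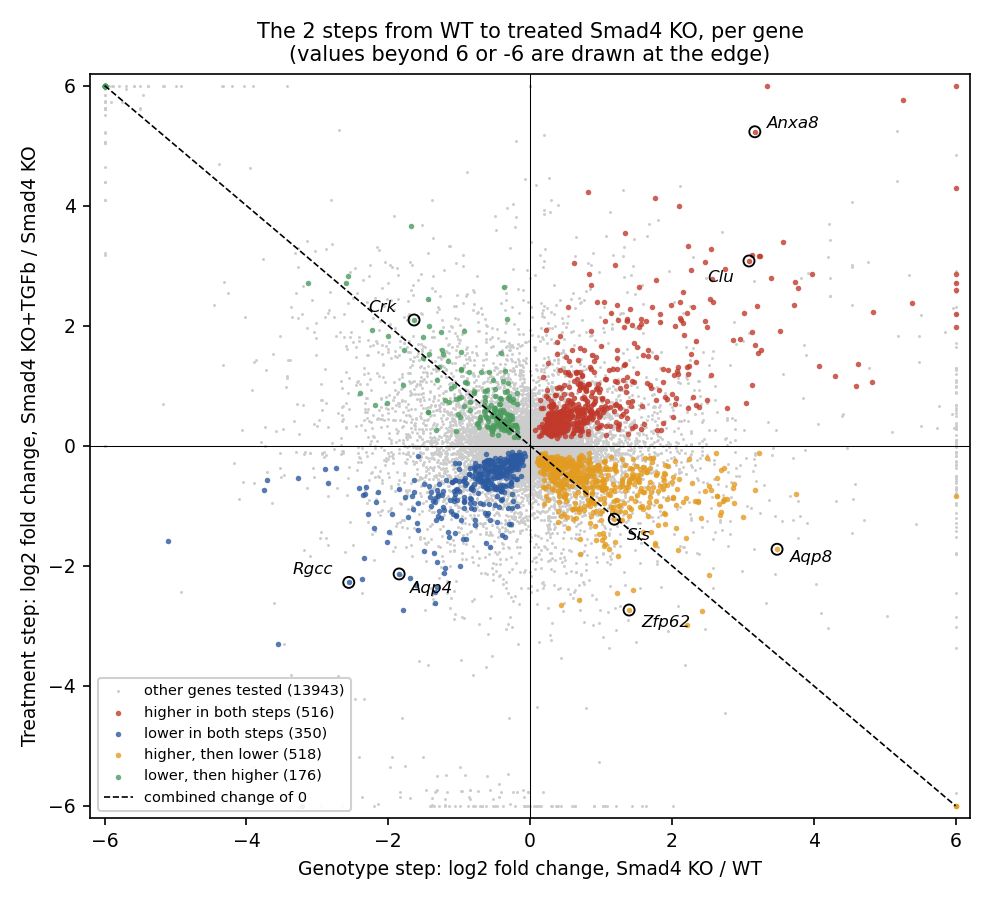
Log2 fold change of the genotype step (horizontal) and of the treatment step (vertical) for each of the 15503 genes tested; colours mark the 4 classes that passed in both steps and the dashed line a combined difference of 0. Clu and Anxa8 lie far out in the quadrant of 516 genes that rose in both steps, Aqp4 and Rgcc in that of 350 genes that fell in both, and Sis and Crk lie near the dashed line.

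Genes that rose in both steps had a median log2 fold change of 0.72 in the genotype step, 0.63 in the treatment step and 1.41 combined. All 516 rose in the combined comparison, 352 of them by more than 2-fold, and both steps passed 2-fold for 118. The steps differed from each other for 132 of the 516 genes, and for the other 384 no difference between steps was called.

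Clu, a secreted chaperone that marks revival stem cells (chr14:65968483-65981547), showed the pattern at high expression. It had 24.7 and 32.1 CPM in WT, 244 and 238 in Smad4 KO and 2003 and 2066 in treated Smad4 KO. Each group lay above the last without overlap. The genotype step was 8.50-fold and the treatment step 8.44-fold, which were not called different (adjusted p = 0.99), and the combined log2 fold change was 6.16 ± 0.13 (adjusted p = 1.0e-06). Spp1, the secreted matrix protein osteopontin, was at 0 in both WT libraries, at 0.712 and 0.446 CPM in Smad4 KO and at 55.1 and 56.9 in treated Smad4 KO. With 3 fragments (12 units) in the 2 WT libraries together taken as the detection floor, treated Smad4 KO was at least 449-fold higher, and the treatment step was 96.4-fold. Anxa8, an annexin of fetal-like epithelium, had 0.191 and 0.73 CPM in WT, 4.05 and 3.94 in Smad4 KO and 153 and 147 with ligand (combined log2 fold change 8.40 ± 0.37, adjusted p = 1.4e-05).

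Cym, the gene of the milk-clotting protease chymosin, had 0.0764 and 0.0912 CPM in WT, 3.21 and 3.39 in Smad4 KO and 182 and 178 in treated Smad4 KO. WT held 2 fragments' worth of units, and the ratio of treated to WT was 2163 with a counting interval from 599 to 17873. Rab11fip5, a partner of the recycling GTPase Rab11, had 0.0955 and 0.365 CPM in WT, 2.19 and 2.03 in Smad4 KO and 18.1 and 19.8 in treated Smad4 KO, all 3 groups apart. Fn1, the matrix protein fibronectin, had 0 and 0.0912 CPM in WT, 0.305 and 0.595 in Smad4 KO and 41.1 and 37.9 in treated Smad4 KO. Its treatment step was 86.9-fold (adjusted p = 0.00023). Itgb8, an integrin chain that releases latent TGF-β, had 0 and 0.182 CPM in WT, 0.967 and 1.11 in Smad4 KO and 10.8 and 11.1 in treated Smad4 KO. WT rested on about 1 fragment for Fn1 and 2 for Itgb8, so that their ratios of treated to WT, 949 and 132, had counting intervals of 170 to 37518 and 36.1 to 1096. Leaving out WT replicate 1 or Smad4 KO replicate 2 ended the genotype step call of Fn1 (adjusted p = 0.0525 and 0.0904), and leaving out Smad4 KO replicate 2 ended that of Itgb8 (0.0586). The treatment step of Itgb8 lost its call without either Smad4 KO or either treated library (adjusted p 0.0659 to 0.0716). Ano1, a calcium-activated chloride channel named after its values were seen, had 9.32 and 9.01 CPM, then 56.1 and 50.4, then 299 and 280.0, with steps of 5.81- and 5.44-fold.

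Markers of fetal and regenerative epithelium were the list most often found in the rising class, 16 of 23 tested (69.6%). Combined, 19 rose and 1 fell, with a median log2 fold change of 2.104, where the median of all genes was -0.02. Anxa1 had 18.5 and 18.7 CPM in WT, 44.5 and 43.2 in Smad4 KO and 187 and 185 in treated Smad4 KO, 10.002-fold above WT in sum, and its treatment step exceeded its genotype step (4.25- and 2.35-fold, adjusted p of the difference = 0.0023). Krt7, a keratin of simple ductal epithelium, had 258 and 246 CPM in WT, 463 and 474 in Smad4 KO and 1251 and 1244 with ligand. Msln, S100a6 and Il33, also of this list, rose in both steps with combined log2 fold changes of 5.23, 4.85 and 3.14. Ly6a, which encodes the repair marker Sca-1, went against the list. It had 22.4 and 23.1 CPM in WT, 17.3 and 16.0 in Smad4 KO and 24.8 and 21.8 with ligand, where treated libraries overlapped WT (combined log2 fold change 0.04, 95% interval -0.23 to 0.30). Areg, the EGF-family ligand amphiregulin, had 85.4 and 93.6 CPM in WT, 44.0 and 37.4 in Smad4 KO and 63.6 and 71.3 in treated Smad4 KO, so that the treatment step brought back only part of the fall. Its combined fall (log2 fold change -0.41, adjusted p = 0.022) lost its call without WT replicate 2 (0.114) or treated replicate 1 (0.121), and the steps of Ly6a lost theirs without either WT or either Smad4 KO library, the treatment step also without treated replicate 1 (adjusted p 0.0549 to 0.144). Areg and Ly6a were named after their values were seen.

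Extracellular matrix and integrin genes rose for 22 of 25 tested, none fell, and 11 rose in both steps. The genotype step alone had 12 higher and 3 lower, and the treatment step 22 higher and none lower. Thbs1, a matrix protein that activates TGF-β, had 37.0 and 35.5 CPM in WT, 88.5 and 90.9 in Smad4 KO and 184 and 199 in treated Smad4 KO. Itgb4, the hemidesmosome integrin chain, had 149 and 145 CPM, then 209 and 207, then 325 and 331. Col4a1, a chain of basement membrane collagen named after its values were seen, had 0.897 and 0.867 CPM in WT, 1.83 and 2.65 in Smad4 KO and 27.8 and 24.3 with ligand, and its treatment step was the larger (adjusted p of the difference = 0.012). Lama5, a laminin chain, had 97.2 and 101 CPM in WT, 112 and 112 in Smad4 KO and 244 and 250 with ligand. Its genotype step, 1.13-fold, lost its call without any 1 of the 6 libraries (adjusted p 0.0616 to 0.120), and with scaling by total counts alone (0.217). The count of 11 fell to 7 without Smad4 KO replicate 2 or treated replicate 1.

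Of 22 epithelial junction and keratin genes, 16 rose and 2 fell, with 11 in the rising class. Krt8, the major simple-epithelium keratin, had 2216 and 2210 CPM in WT, 3458 and 3513 in Smad4 KO and 5193 and 5069 in treated Smad4 KO, and its steps of 1.57- and 1.47-fold were not called different (adjusted p = 0.064). Dsp, the desmosome linker, and Krt19 rose in both steps to combined log2 fold changes of 1.69 and 1.66. The 2 that fell, Cldn3 and Cldn15, are tight junction claudins and had risen in the genotype step. Only 1 fall was called without WT replicate 2 or treated replicate 1.

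Of 21 YAP/TAZ targets tested, 13 rose and none fell in the combined comparison (median log2 fold change 1.02), and 5 rose in both steps. Myof, a membrane repair protein, had 11.6 and 11.6 CPM in WT, 49.4 and 55.2 in Smad4 KO and 191 and 185 in treated Smad4 KO, 16.2-fold in sum. Ajuba had 27.3 and 29.4 CPM in WT, 39.6 and 36.3 in Smad4 KO and 137 and 132 with ligand, and its treatment step of 3.54-fold exceeded its genotype step of 1.34-fold (adjusted p = 0.0010). Wwc1, a Hippo regulator also called KIBRA, had 148 and 151 CPM, then 224 and 217, then 301 and 305. Ccn2, a matricellular protein on both this list and that of TGF-β targets, rose in both steps to a combined log2 fold change of 3.67. In this list 3 genes cancelled: F3, Gadd45b and Arhgef17. F3, tissue factor, had 48.5 and 47.4 CPM in WT, 28.3 and 27.3 in Smad4 KO and 51.6 and 52.7 with ligand, and its combined difference did not pass (log2 fold change 0.12, 95% interval -0.05 to 0.29). Among 20 Hippo pathway components 9 rose and 1 fell, against 20.7% and 19.0% of all genes tested. Tead4, a DNA-binding partner of YAP, had 3.88 and 3.54 CPM in WT, 4.94 and 7.43 in Smad4 KO and 29.3 and 23.4 in treated Smad4 KO. It passed in the treatment step and not in the genotype step (1.67-fold, adjusted p = 0.0546). The 2 steps of Tead4 were not called different (adjusted p = 0.075). Amotl1, an angiomotin that binds YAP, had 4.07 and 2.28 CPM in WT, 6.41 and 6.79 in Smad4 KO and 33.5 and 36.2 in treated Smad4 KO, with a genotype step that lost its call without either Smad4 KO library (adjusted p 0.0708 and 0.0869). Yap1 itself had 147 and 143 CPM in WT and 151 and 154 in treated Smad4 KO (combined log2 fold change 0.07, 95% interval -0.04 to 0.19), after 133 and 132 in Smad4 KO, and its treatment step passed as a rise (1.15-fold, adjusted p = 0.033).

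TGF-β and SMAD targets and feedback genes rose for 14 of 19 tested and none fell. Pmepa1, a feedback inhibitor of the pathway, had 13.8 and 14.8 CPM in WT, 37.6 and 38.2 in Smad4 KO and 187 and 182 in treated Smad4 KO (combined log2 fold change 3.69 ± 0.07, adjusted p = 5.5e-07). Smad7, the inhibitory SMAD, rose in both steps to a combined log2 fold change of 2.70. Cdkn2b, a cell cycle inhibitor, had 25.4 and 25.1 CPM in WT and 96.0 to 99.5 in all 4 deficient libraries, so that its 3.84-fold difference lay in the genotype step (adjusted p of the difference between steps = 6.5e-05). Skil, a SMAD corepressor, had 21.7 and 22.9 CPM in WT, 54.9 and 67.8 in Smad4 KO and 81.9 and 78.5 with ligand, with a genotype step larger than the treatment step (adjusted p = 0.012). Among 20 ligands, receptors and SMADs of the family 5 rose and 4 fell, shares near those of all genes tested (20.7% and 19.0%). Bmp7, a BMP ligand, had 51.6 and 54.7 CPM, then 24.6 and 25.9, then 13.9 and 13.7, falling in both steps. Tgfbr2, the ligand-binding receptor, had 186 and 190 CPM in WT, 145 and 145 in Smad4 KO and 212 and 215 in treated Smad4 KO. Its small combined rise (log2 fold change 0.19) lost its call without WT replicate 1 (adjusted p = 0.0679) or either treated library (0.0515 and 0.0801). Smad3 had 54.7 and 60.6 CPM, then 78.5 and 82.3, then 105 and 101, with a treatment step that lost its call without either Smad4 KO or either treated library (adjusted p 0.0588 to 0.103). The 5 rising family members became 2 without either treated library and 3 without either WT library.

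**Figure D2:**
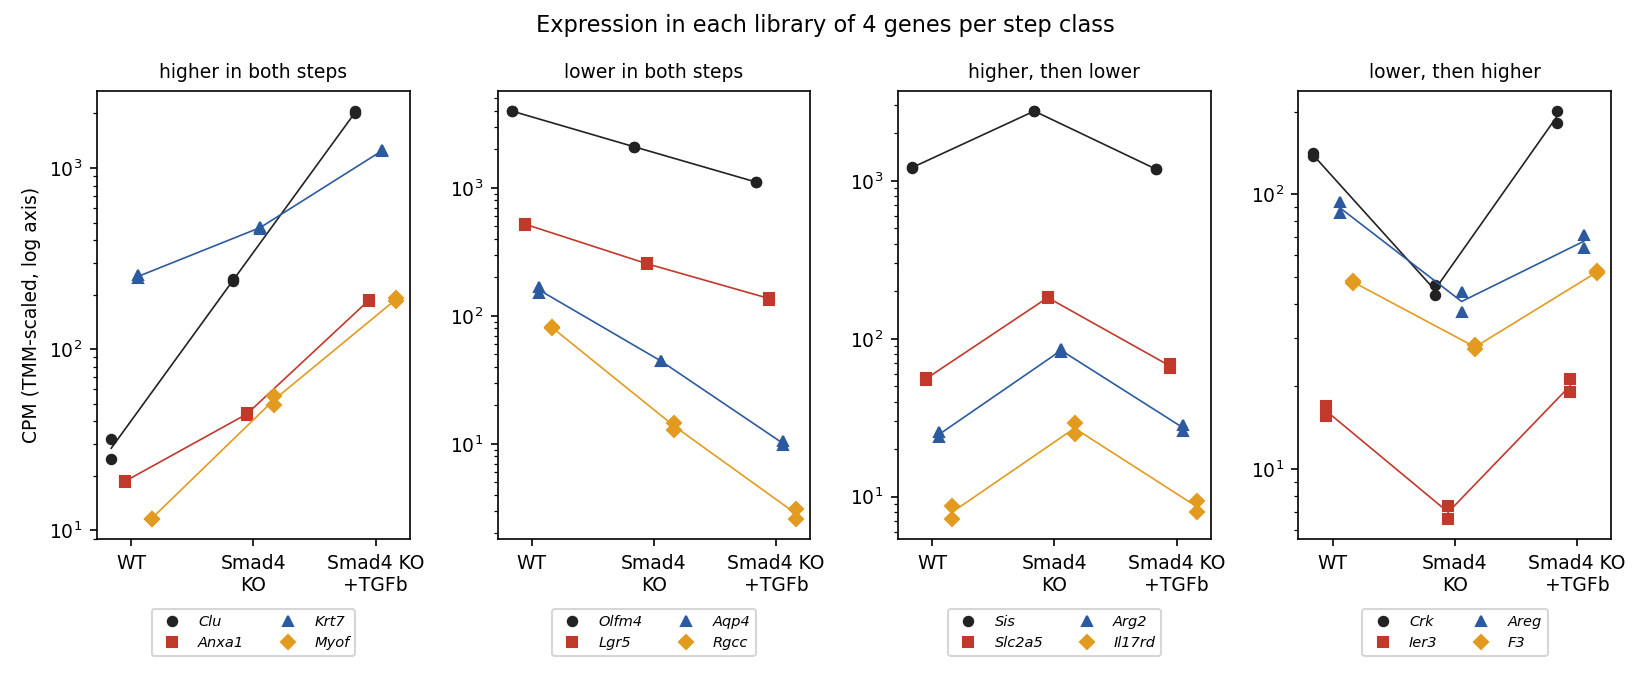
CPM on a log axis in each of the 6 libraries (points; lines join group means) for 4 genes of each class. Clu, Anxa1, Krt7 and Myof climb at each step, Olfm4, Lgr5, Aqp4 and Rgcc descend at each step, Sis, Slc2a5, Arg2 and Il17rd peak in Smad4 KO, and Crk, Ier3, Areg and F3 have their lowest values there.

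Genes that fell in both steps had median log2 fold changes of -0.59, -0.55 and -1.17 in the genotype step, the treatment step and combined. Of the 350, 206 fell by more than 2-fold combined and 41 by more than 2-fold in each step, and the steps differed for 59. Slc14a1, a urea channel, had 22.2 and 21.1 CPM in WT, 1.83 and 1.86 in Smad4 KO and 0.0925 and 0.274 in treated Smad4 KO, with WT far above both other groups. Rgcc, a regulator of the cell cycle (chr14:79288756-79301645), had 80.7 and 81.3 CPM, then 14.6 and 12.9, then 3.08 and 2.60 (combined log2 fold change -4.83 ± 0.13, adjusted p = 2.0e-06). Rassf2, a RAS effector of the Hippo-linked RASSF family, had 18.6 and 17.8 CPM, then 3.13 and 4.04, then 1.06 and 0.889. Esrrg, an orphan nuclear receptor of oxidative metabolism, had 27.1 and 26.6 CPM, then 8.09 and 9.51, then 1.99 and 1.55. Pbld1 had 34.2 and 30.0 CPM, then 7.12 and 8.74, then 2.41 and 2.80. All 3 groups lay apart for each of these 5 genes, and the steps of none were called different (adjusted p 0.15 to 0.85).

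Crypt base stem cell markers fell for 13 of 18 tested and rose for 1, with 9 in the class that fell in both steps. Olfm4, a secreted protein of crypt base columnar cells, had 3974 and 3989 CPM in WT, 2091 and 2101 in Smad4 KO and 1106 and 1113 in treated Smad4 KO. Lgr5, the R-spondin receptor that marks these stem cells, had 516 and 523, then 257 and 252, then 134 and 139. Replicates were close and the groups wide apart, and each step lowered both genes to a similar degree: 1.8996- and 1.89-fold for Olfm4, 2.04- and 1.87-fold for Lgr5. Aqp4, a water channel of the crypt base, had 151 and 169 CPM, then 44.4 and 44.6, then 9.71 and 10.5, 15.8-fold lower in sum. Rgmb and Sox9 also fell in both steps, with combined log2 fold changes of -1.80 and -0.85. Prom1, which encodes the membrane protein CD133, rose instead: 306 and 273 CPM in WT, 373 and 363 in Smad4 KO and 482 and 496 with ligand, named after its values were seen. Without treated replicate 1 the class held 5 of the stem cell markers. Among 17 Wnt targets 9 fell and 3 rose, against 19.0% and 20.7% of all genes tested, so that the rises were near that share. Axin2, the feedback scaffold of the pathway, had 338 and 303 CPM, then 189 and 186, then 132 and 127.

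Goblet cell markers fell for 17 of 18 tested and none rose, with a median log2 fold change of -1.14, and 9 fell in both steps. Spink4, a secreted protease inhibitor of goblet cells, had 603 and 623 CPM in WT, 235 and 231 in Smad4 KO and 139 and 133 in treated Smad4 KO. Fcgbp, a mucus gel component, had 2729 and 2736 CPM, then 2460 and 2346, then 1200 and 1203, with a treatment step that exceeded the genotype step (2.00- against 1.14-fold lower, adjusted p = 7.3e-05). Tff3, the trefoil peptide of goblet cells, had 674 and 661, then 495 and 506, then 320 and 303. Muc2, the main gel-forming mucin, passed in the treatment step and combined (log2 fold changes -1.19 and -1.40) and not in the genotype step. Zg16, a mucus lectin named after its values were seen, rose and then fell: 41.7 and 43.5 CPM in WT, 93.0 and 90.9 in Smad4 KO, 27.4 and 28.7 with ligand. Pigr, the receptor that carries IgA across the epithelium, had 3221 and 3227 CPM, then 2456 and 2402, then 1316 and 1290.5. The 9 goblet markers of the falling class were 6 to 9 in fits that left out 1 library.

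Glycolysis and hypoxia genes fell for 20 of 21 tested and none rose, with a median of -0.57 and 10 in the class that fell in both steps. Pgk1, a glycolytic kinase, had 2097 and 2101 CPM in WT, 1410 and 1379 in Smad4 KO and 974 and 963 in treated Smad4 KO, with steps that were not called different (adjusted p = 0.26). Ero1l, an oxidase of the endoplasmic reticulum that hypoxia induces, had 818 and 823 CPM, then 410 and 410, then 341 and 334, with the genotype step the larger (adjusted p = 0.00025). Bnip3 and Vegfa, both targets of hypoxia factors, fell in both steps with combined log2 fold changes of -2.03 and -1.18. Among 16 genes of the unfolded protein and amino acid stress list 7 fell and 1 rose, against 19.0% and 20.7% of all genes tested. Asns, asparagine synthetase, had 242 and 242 CPM, then 158 and 151, then 118 and 122. Psat1, of serine synthesis, had 206 and 200 CPM, then 143 and 136, then 118 and 115, and its treatment step lost its call without Smad4 KO replicate 1 or either treated library (adjusted p 0.0652 to 0.0980). The 1 rise in that list was called in only 1 of the 6 fits that left out a library, that without treated replicate 1.

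Genes that rose with genotype and fell with treatment had medians of 0.78 and -0.54, which left 0.16 combined. Of the 518, 235 were still higher than WT, 204 showed no combined call and 79 ended lower than WT. In the reverse class of 176, medians of -0.54 and 0.62 left 0.03, with 31 higher, 119 without a combined call and 26 lower. Together 323 cancelling genes had no combined call, and for 257 of them the 95% interval of the combined difference lay within 1.5-fold in both directions. For the other 66 the data do not limit the combined difference to 1.5-fold.

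**Figure D3:**
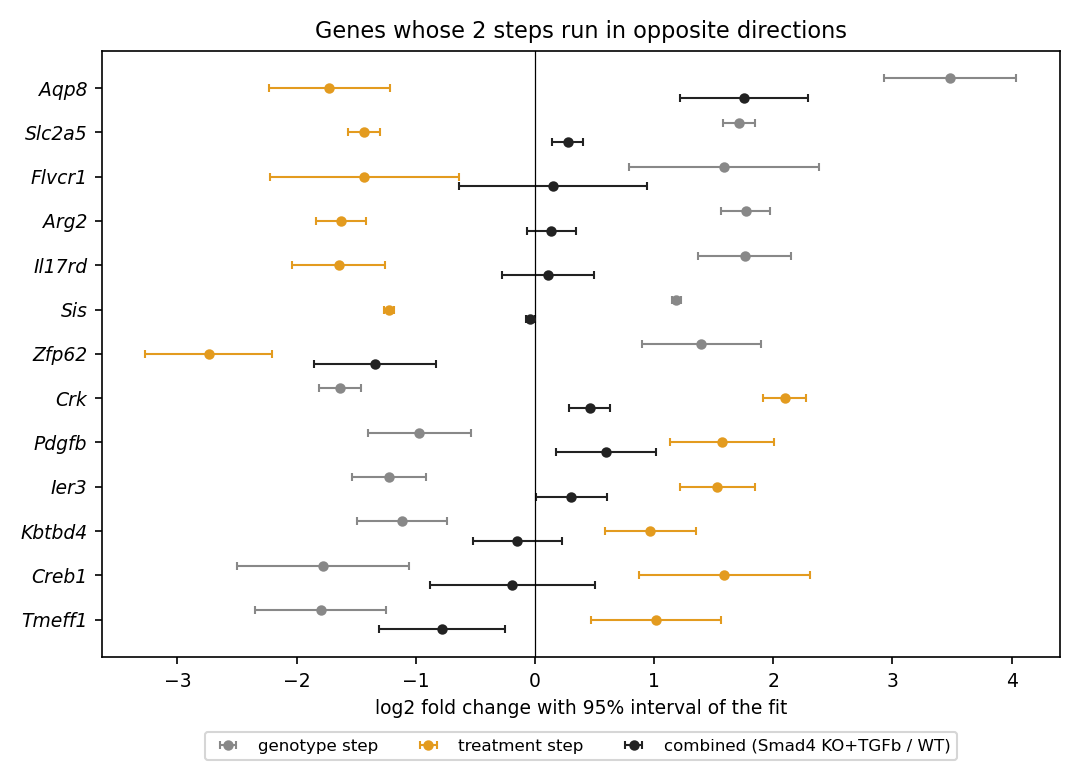
Log2 fold change with its 95% interval (horizontal axis) of the genotype step (grey), the treatment step (orange) and the combined comparison (black) for the 12 cancelling genes picked by step size and for Sis. For Arg2, Il17rd and Sis the steps lie on opposite sides of 0 and the black interval includes 0 or ends next to it, while Aqp8 stays above 0 and Zfp62 ends below it.

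Sis (chr3:72888557-72967863), named after its values were seen, came back close to the WT level. It had 1212 and 1218 CPM in WT, 2773 and 2758 in Smad4 KO and 1181 and 1185 in treated Smad4 KO. The Smad4 KO libraries lay far above both other groups, and treated libraries lay just under WT. The genotype step was 2.28-fold higher and the treatment step 2.34-fold lower (adjusted p = 2.0e-07 and 1.3e-06), and the combined log2 fold change was -0.04 (95% interval -0.08 to -0.00, adjusted p = 0.10). With scaling by total counts alone this remainder passed as a fall, -0.08 (adjusted p = 0.0075). Arg2, mitochondrial arginase, had 23.8 and 25.8 CPM, then 85.8 and 83.1, then 25.9 and 28.7, again with no combined call (log2 fold change 0.14, 95% interval -0.07 to 0.34). Of its exon bases 20.0% overlap those of Vti1b. Il17rd, a receptor-like inhibitor of FGF and ERK signalling, had 8.76 and 7.25 CPM, then 24.96 and 29.3, then 7.98 and 9.35, where treated and WT libraries overlapped.

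Slc2a5, the fructose transporter, had 56.5 and 54.8 CPM in WT, 184 and 181 in Smad4 KO and 65.8 and 69.0 in treated Smad4 KO. Most of its 3.28-fold rise was undone, and a combined rise of 1.21-fold remained, which lost its call without treated replicate 2 (adjusted p = 0.0531). Aqp8, a water channel typical of colon, had 0.955 and 1.19 CPM, then 13.3 and 10.7, then 3.54 and 3.69, and stayed 3.38-fold above WT. Zfp62, a zinc finger gene, had 13.5 and 11.7 CPM, then 34.8 and 31.6, then 3.91 and 6.04, and ended 2.53-fold below WT. Flvcr1, a heme exporter, had 25.6 and 24.7 CPM in WT and 76.6 and 74.5 in Smad4 KO, while its treated libraries disagreed at 17.3 and 38.6, on either side of WT. The combined log2 fold change of Flvcr1, 0.15 (adjusted p = 0.75), was 0.62 without treated replicate 1 (adjusted p = 0.0052) and -0.53 without treated replicate 2 (0.012), and its steps lost their calls without either WT library or Smad4 KO replicate 1, the treatment step also without Smad4 KO replicate 2 (0.0523 to 0.106). Of its exon bases 15.6% overlap those of A230020J21Rik.

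Enterocyte markers were mostly of this class, 18 of 29. In the genotype step 22 rose and 4 fell (median 0.87), in the treatment step 3 rose and 23 fell (median -0.76), and combined 16 rose and 9 fell (median 0.38). The apolipoproteins Apoa1 and Apob, which build lipoprotein particles, kept nearly all of the genotype step. Apoa1 had 175 and 172 CPM in WT, 1616 and 1651 in Smad4 KO and 1525 and 1477 in treated Smad4 KO, and Apob had 460 and 448, then 2839 and 2769, then 2528 and 2608. Their treatment steps, 1.09-fold each, lost the call without some single libraries (for Apoa1 either Smad4 KO library or treated replicate 2, for Apob Smad4 KO replicate 1 or treated replicate 1, adjusted p 0.0640 to 0.117) and with scaling by total counts alone (0.0945 and 0.0952). Lct had 28.8 and 31.0 CPM, then 192 and 185, then 94.4 and 98.7, a rise of which part remained. Slc2a2 and Treh, a glucose transporter and the enzyme trehalase, rose and then fell below WT, with combined log2 fold changes of -0.56 and -0.62. Not all enterocyte genes cancelled. Cps1, the urea cycle enzyme that makes carbamoyl phosphate, had 3491 and 3431 CPM in WT, 1431 and 1403 in Smad4 KO and 652 and 681 in treated Smad4 KO, and with Anpep, Dpp4 and Espn it fell in both steps. Anpep, a brush border peptidase, had 220 and 231, then 178 and 188, then 75.0 and 73.5. In the fits that left out 1 library, 14 to 18 of the 29 genes cancelled in this direction.

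Drug and xenobiotic metabolism genes held the highest share of this class, 22 of 23 tested, with Abcb1a the exception. All 23 rose in the genotype step (median 1.27), 22 fell in the treatment step (median -0.67), and combined 17 rose and 4 fell. Ces2a, a carboxylesterase, had 94.5 and 90.2 CPM in WT, 1266 and 1219 in Smad4 KO and 715 and 707 in treated Smad4 KO. Gsta1, a glutathione transferase, had 207 and 215, then 983 and 1004, then 868 and 841. Cyp3a11, a cytochrome P450 named after its values were seen, had 34.8 and 35.8, then 181 and 174, then 94.2 and 93.2. All 3 stood above WT in both deficient groups, and the part of the genotype step that the ligand removed differed between them. Ces1d and Gstm3 rose and then fell below WT, with combined log2 fold changes of -1.09 and -0.47. The 22 genes were 18 to 22 in fits that left out 1 library.

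Among 21 genes of fatty acid oxidation and PPARα targets 15 rose and 1 fell combined (none fell without either WT library), with 10 that rose and then fell. Creb3l3, a membrane-bound transcription factor of lipid metabolism, had 42.8 and 43.7 CPM, then 279 and 298, then 217 and 231. The 10 genes became 5 without either treated library. Of 20 cholesterol synthesis genes 11 rose and none fell in the genotype step, 1 rose and 9 fell in the treatment step, and combined 3 rose and 4 fell around a median of 0.01, shares near or below those of all genes. Insig1, which retains the sterol sensor in the endoplasmic reticulum, had 479 and 471 CPM, then 632 and 617, then 396 and 411. Of 18 intestinal transcription factors 8 rose and 1 fell, against 20.7% and 19.0% of all genes tested. Hnf4g, a nuclear receptor of enterocytes named after its values were seen, had 68.8 and 69.0 CPM, then 215 and 227, then 117 and 113, while Onecut2 had 149 and 161, then 271 and 263, then 363 and 375 and Klf5 had 265 and 270, then 406 and 407, then 466 and 470, both rising in each step. The 1 that fell became 2 without either Smad4 KO library or treated replicate 1, and 3 with scaling by total counts alone.

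**Figure D4:**
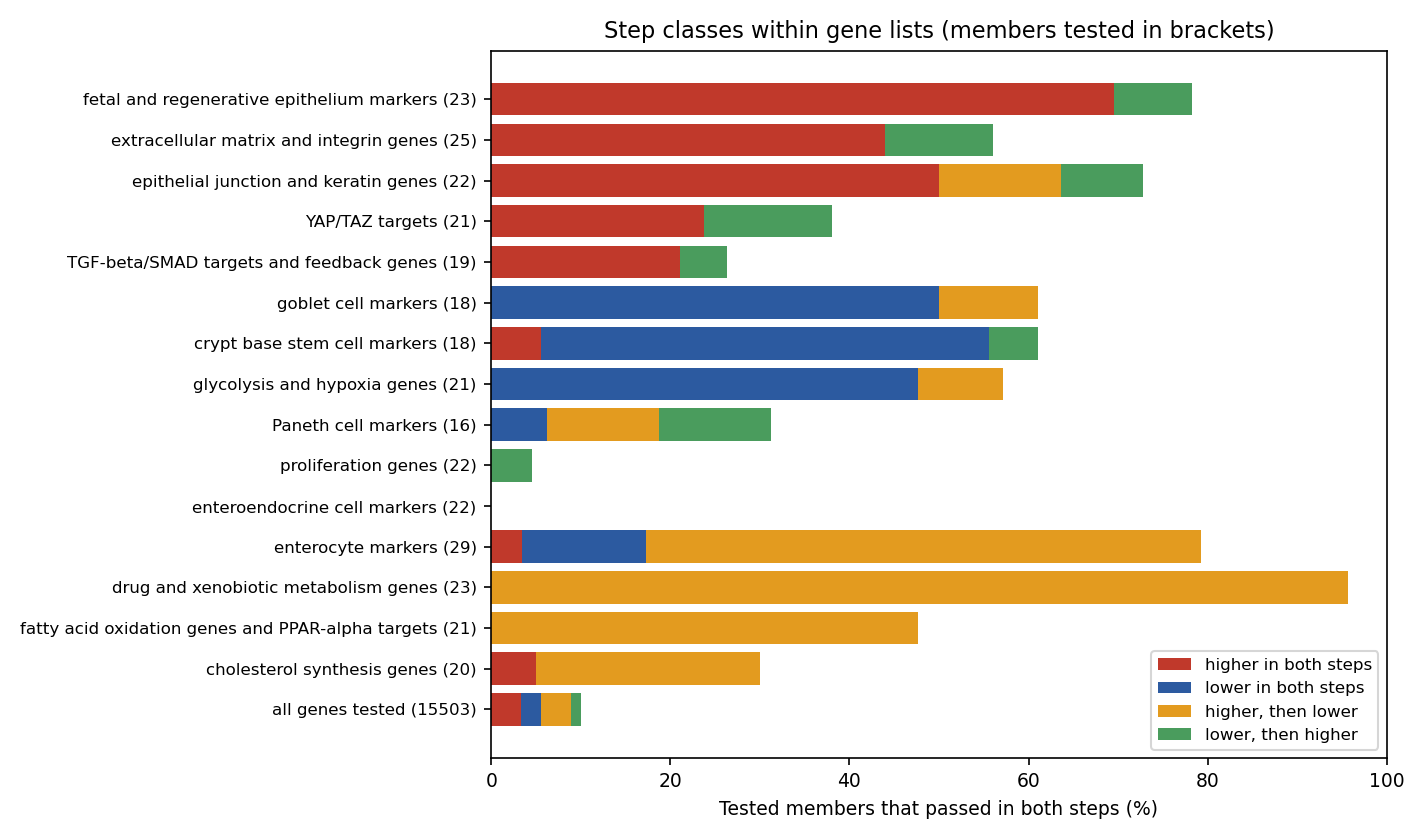
Share of the tested members of each gene list (horizontal axis, percent) that passed in both steps, coloured by class; the bottom bar is all 15503 genes tested. Drug metabolism genes are mostly in the class that rose and then fell (22 of 23), fetal and regenerative markers in that which rose in both (16 of 23), and the 22 enteroendocrine markers are in none.

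Genes that fell with genotype and rose with treatment included signalling genes. Crk, an adaptor of tyrosine kinase signalling (chr11:75679259-75706908), had 138 and 141 CPM in WT, 42.9 and 46.9 in Smad4 KO and 182 and 201 in treated Smad4 KO. The lowest group was Smad4 KO by a wide margin, and treated libraries lay above WT, a combined rise of 1.37-fold (adjusted p = 0.0030). Ier3, an early response gene, had 15.6 and 16.9 CPM, then 7.33 and 6.59, then 19.1 and 21.2 (combined log2 fold change 0.31, 95% interval 0.01 to 0.61, adjusted p = 0.099). Pdgfb, a growth factor, had 18.0 and 13.6, then 8.98 and 7.13, then 23.7 and 24.1. Creb1, a cAMP-responsive factor, had 75.7 and 76.9 CPM in WT, 14.5 and 29.9 in Smad4 KO and 65.3 and 68.5 in treated Smad4 KO, where the 2 Smad4 KO libraries stood wide apart (95% interval of the genotype log2 fold change -2.50 to -1.06). Tmeff1, a membrane protein with follistatin domains, had 11.3 and 8.85, then 2.57 and 3.22, then 5.30 and 6.40. Kbtbd4, a ubiquitin ligase adaptor, had 24.02 and 20.8, then 11.02 and 9.69, then 17.9 and 22.6, and its treated libraries overlapped WT. Several of these calls were lost in fits that left out 1 library. The treatment step of Creb1 lost its call without either treated library, with log2 fold changes of 1.62 and 1.55 against 1.59 with all libraries. That of Tmeff1 lost its call without any Smad4 KO or treated library (0.86 to 1.19 against 1.01). That of Kbtbd4 lost its call without Smad4 KO replicate 2 (0.88 against 0.97). The combined call was lost for Pdgfb without WT replicate 2 or either treated library (0.1099 to 0.155) and for Tmeff1 without WT replicate 1 or either treated library (0.0639 to 0.161). Matrix genes of this class were Itga6, Lamb3 and Lamb1. Itga6, the partner chain of Itgb4, had 302 and 291 CPM, then 242 and 228, then 290 and 308, with treated and WT libraries overlapping. The genotype step of Lamb3 lost its call without WT replicate 1 (adjusted p = 0.0578).

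A further 1464 genes passed only in the combined comparison, 624 higher and 840 lower. This count was 933 without treated replicate 2, 2472 or 2344 without Smad4 KO replicate 1 or 2, and 2363 or 2525 with a separate Smad4 KO library for each step. Parp3, a DNA repair enzyme, had 6.87 and 6.62 CPM in WT, 8.63 and 9.69 in Smad4 KO and 13.1 and 13.0 in treated Smad4 KO. Its steps of 1.36- and 1.43-fold did not pass (adjusted p = 0.054 and 0.051), and their sum did (1.94-fold, adjusted p = 0.0021). Osgep, of tRNA modification, had 40.1 and 39.3 CPM, then 33.7 and 33.7, then 28.1 and 27.6. Pecr, a peroxisomal reductase, had 15.4 and 16.3, then 12.01 and 11.1, then 8.81 and 7.41. Tvp23b, a Golgi protein, had 59.4 and 61.9, then 50.2 and 53.4, then 43.2 and 44.3. For all 4 the Smad4 KO libraries lay between the other groups.

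The genotype step was the only one to pass for 3144 genes and the treatment step for 961. Of the former, 1359 of 1586 higher and 1267 of 1558 lower genes kept a call in the same direction in the combined comparison. For 889 of these 1586 and 1158 of these 1558 genes no difference between the steps was called. The same held for 333 of 514 higher and 251 of 447 lower genes that passed in the treatment step alone. Proliferation genes fell for 19 of 22 combined and none rose. In this list 18 genes passed in the genotype step and not in the treatment step, while the steps were called different for 14 of the 22. The only treatment step call was Cdc20, which rose (5 genes fell at an unadjusted p under 0.05, and 3 by DESeq2). Top2a, a DNA topoisomerase of dividing cells, had 604 and 594 CPM in WT, 386 and 398 in Smad4 KO and 358 and 372 in treated Smad4 KO. Mki67, the proliferation antigen Ki-67, had 603 and 592, then 423 and 410, then 389 and 386. Mcm7, a replication helicase subunit, had 271 and 275, then 193 and 185, then 173 and 167. For all 3 the genotype step was larger than the treatment step (adjusted p of the difference 0.0027 to 0.021).

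Enteroendocrine markers fell for 18 of 22 and rose for 1, and none passed in the treatment step in edgeR (at an unadjusted p under 0.05, 3 higher and 4 lower, by DESeq2 1 higher and 1 lower). In the genotype step 13 fell and none rose, and 6 members passed only in the combined comparison. The steps were called different for 9 of the 22. Chgb, a granin of hormone granules, had 537 and 545 CPM in WT and 202 to 224 in the 4 deficient libraries. Gcg, the glucagon gene, had 87.6 and 88.2 CPM in WT and 12.2 to 15.2 in the others, and Cck, the hormone cholecystokinin, had 90.5 and 89.9 in WT and 33.6 to 36.1. In all 3 the deficient libraries lay close together and far below WT. Pyy, a hormone of distal gut, was the 1 that rose, from 3.25 and 3.35 CPM to 7.12 and 6.97, a call lost without any WT or treated library (adjusted p 0.0847 to 0.108). Paneth cell markers fell for 12 of 16 and rose for 2. Lyz1, Paneth cell lysozyme, had 2118 and 2175 CPM in WT and 688 to 714 in the deficient libraries, and Defa17, an α-defensin, had 1396 and 1407 in WT and 485 to 529. Defa22 had 140 and 148 CPM, then 15.9 and 13.9, then 10.1 and 10.5, with a treatment step that lost its call without treated replicate 1 (adjusted p = 0.0583). Near-identical defensin copies may have shared reads. Mptx1 and Mptx2, mucosal pentraxins, rose in the genotype step and fell below WT with treatment, to combined log2 fold changes of -2.22 and -1.87. Tuft cell markers had 1 higher and 2 lower of 11 tested, shares below those of all genes tested (20.7% and 19.0%). Fewer were lower without either WT library. Dclk1, a kinase that marks tuft cells, had 6.40 and 5.13 CPM in WT, 2.75 and 2.997 in Smad4 KO and 2.50 and 2.07 in treated Smad4 KO, while Ptgs1, a prostaglandin synthase, had 0.63 and 0.388, then 0.967 and 1.78, then 2.38 and 3.15.

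At the extremes of the combined comparison stood genes at or near 0 in 1 group. Among the highest, Mcpt2, a mast cell protease gene, and Gulp1, an adaptor for engulfment, were at 0 in both WT libraries. Mcpt2 had 1.63 and 1.29 CPM in Smad4 KO and 9.55 and 8.16 in treated Smad4 KO, at least 71.0-fold above WT, and Gulp1 had 0.407 and 0.396, then 6.96 and 8.87, at least 63.5-fold. Xlr4a, an X-linked lymphocyte-regulated gene, was at 0 in WT and at 4.66 to 6.18 CPM in the 4 deficient libraries, at least 49.0-fold higher in treated Smad4 KO, with no call in the treatment step. Among the lowest, Adgrd1, an adhesion receptor, had 7.62 and 8.08 CPM in WT, 0.814 and 0.867 in Smad4 KO and 0 in both treated libraries, at least 57.0-fold lower. Emid1, a secreted matrix protein, had 6.72 and 6.11 CPM in WT and was at 0 in all 4 deficient libraries, at least 46.6-fold lower in treated Smad4 KO. Myl9, a myosin light chain, had 31.0 and 28.8 CPM in WT, 1.12 and 0.619 in Smad4 KO and 0.208 and 0.365 with ligand, 103-fold lower in sum. Its treatment step lost its call without either WT library, either treated library or Smad4 KO replicate 1 (adjusted p 0.0617 to 0.164). Defa29 had 52.9 and 53.8 CPM in WT, 2.88 and 3.32 in Smad4 KO and 2.13 and 1.23 in treated Smad4 KO.

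For the lists of this paragraph, the shares of all genes tested were 20.7% higher and 19.0% lower. Of 24 inflammatory and antimicrobial genes 11 rose and 4 fell, the falls near that share. Tnfaip3, a brake on NF-κB, had 15.4 and 16.2 CPM, then 28.9 and 26.9, then 56.9 and 56.3. Of 21 actin and SRF target genes 13 rose and 3 fell, among them Actb with 1177 and 1138, then 1413 and 1426, then 1877 and 1800 CPM, and Flna, an actin cross-linker, with 142 and 150, then 174 and 184, then 302 and 298. Of 10 EGF-family genes 5 rose and 3 fell, 1 of them without WT replicate 2 or treated replicate 1. Erbb3, a receptor of this family, had 214 and 217 CPM in WT and 454 to 484 in the deficient libraries, and Erbb2 had 161 and 158, then 237 and 236, then 268 and 263, with a treatment step that lost its call without any 1 library (adjusted p 0.0525 to 0.172). Of 15 p53 targets 10 rose and 1 fell (2 fell without WT replicate 1 or with scaling by total counts alone), Perp with 117 and 114, then 208 and 203, then 289 and 280 CPM, and Trp53inp1 with 35.4 and 28.5, then 58.1 and 60.2, then 75.8 and 71.6. Of 12 interferon response genes 5 rose and none fell (1 at an unadjusted p under 0.05, 0 by DESeq2), Irf1 with 19.7 and 25.2, then 43.8 and 46.9, then 62.6 and 53.2 CPM, and Mx1 with 0.363 and 0.297, then 2.95 and 3.02, then 2.80 and 2.30. BMP targets had 2 higher of 8 and none lower (1 at an unadjusted p under 0.05, 1 by DESeq2). The 2 higher are a share near that of all genes tested (20.7%), and fewer were higher without WT replicate 1 or either treated library. Mesenchymal transition genes had 2 higher and 2 lower of 5 tested (1 lower without any 1 WT or treated library), with 4 of the 11 listed at 0 in all libraries. Their median combined log2 fold change was -0.83, and only the 2 higher, Fn1 and S100a4, are named in this report. S100a4 was at 0 in WT, at 0.687 and 0.619 CPM in Smad4 KO and at 4.90 and 3.65 with ligand. It stood at least 34.3-fold above WT, and 51.7% of its exon bases overlap Gm42674. Its treatment step lost its call without Smad4 KO replicate 2 (adjusted p = 0.0543) or treated replicate 1 (0.0889).

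Colon markers summed to 213 to 236 CPM in WT, 300 to 306 in Smad4 KO and 224 to 226 in treated Smad4 KO, with 4 of 8 tested higher and 2 lower (20.7% and 19.0% for all genes). Gastric and pancreatic markers summed to 30.4 to 37.8, 42.2 to 47.7 and 49.8 to 50.4 CPM, with 1 of 6 higher and 1 lower. The lower call did not hold when any 1 library was left out, nor with a separate Smad4 KO library for each step. Markers of cells other than epithelium were low. Lyz2, of the leukocyte list, is also on the Paneth list. Of 8 leukocyte markers 4 were tested and 2 rose (1 in each fit that left out 1 library), and their summed level was 3.88 to 4.88 CPM in WT, 3.22 to 3.77 in Smad4 KO and 10.8 to 10.96 in treated Smad4 KO. Fibroblast and muscle markers summed to 1.43 to 2.76 CPM in WT, 0.712 to 0.842 in Smad4 KO and 0.301 to 0.524 in treated Smad4 KO, with 5 of 9 at 0 in every library and 1 of the 2 tested lower. Endothelial markers reached at most 1.18 CPM in sum, and none of the 2 tested passed (edgeR). Immediate early and dissociation genes, which handling can raise, summed to 510 to 526 CPM in WT, 528 to 546 in Smad4 KO and 726 to 748 in treated Smad4 KO, with 6 of 12 higher and 1 lower, and their part in the combined difference was not tested.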

How the data were processed

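RNA of 6 organoid libraries in 3 groups of 2 was sequenced. The authors deposited estimated counts per gene, for which the submitters' processing notes name StringTie 1.3.3b, HISAT2 2.1.0, SAMtools 1.9, FastQC 0.11.9 and the build GRCm38 (mm10). The values are whole numbers, and their multiples point to about 4 units per fragment, so low values and floors were read in units of that size. Such units are not independent fragments, and intervals and floors cover counting error only.

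edgeR 4.0.16 (R 4.3.3, limma 3.58.1) was run on the deposited values with TMM scaling, filterByExpr and the quasi-likelihood test over 3 groups (3 residual degrees of freedom), with Benjamini-Hochberg adjustment over 15503 genes and a threshold of 0.05. Contrasts were the combined difference, both steps and the difference between steps. DESeq2 1.42.0, other scalings, filters, thresholds, left-out libraries, a replicate block and a separate Smad4 KO library per step were the alternatives. Fits were tested on simulated data. CPM values are TMM-scaled.

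Genes named were Smad4, the 5 highest and 5 lowest combined differences (at least 5 CPM), 6 per class by the smaller step (at least 10 CPM), 4 passing only in the combined comparison, and up to 3 members of each of 37 gene lists. Sis, Lct, Anpep, F3, Yap1, Tgfbr2, Itga6, Lamb3, Pyy, the genes marked so in the text, and list members given with a combined value alone, were named after their values were seen. The comparison and the lists were chosen with earlier results of these data known. Coordinates and overlaps are from GENCODE vM21, windows from RefSeq. Replicate numbers did not pair the libraries (correlation of deviations 0.00 to 0.01). The tables were handled with pandas 2.3.3, scipy 1.17.1 and matplotlib 3.10.9. A few list members are counted in their lists and not reported here by name.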

Additional observations from a re-analysis of the deposited data

How the results depend on the processing

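Of 4751 named-gene values under an alternative, 4570 kept direction and side of the threshold, 176 lost the call, 4 gained one and 1 reversed. The reversed value was the combined log2 fold change of Flvcr1, 0.62 without treated replicate 1 and -0.53 without treated replicate 2, whose treated libraries lay on either side of WT. Of 1304 list counts, 98 moved by over 1.5 times. Genes that fell and then rose numbered 306 with total counts alone and 283 by DESeq2. With a separate Smad4 KO library per step (replicate 1 or 2 for the genotype step), the classes held 337 or 335 (both higher), 224 or 213 (both lower), 333 or 338 (higher then lower) and 69 or 61 (lower then higher) genes, 2363 or 2525 passed only in the combined comparison, and the treatment step had 1627 calls with replicate 2 for the genotype step. These fits use fewer libraries per step. At an adjusted p of 0.01, the combined comparison had 1728 lower genes, the genotype step 2718 calls, the treatment step 1308, the classes 255, 157, 293 and 46, and the difference between steps 1148. At an adjusted p of 0.05 with a 1.5-fold limit, the combined comparison had 1869 higher and 1622 lower genes, the steps 2399 and 1247 calls and the classes 227, 121, 190 and 66. Leaving out 1 library gave 2479 to 3140 higher and 1990 to 2872 lower genes combined, 3231 to 4305 and 1504 to 2305 calls in the steps, 1285 to 1808 in the difference between steps, class counts of 292 to 439, 198 to 238, 346 to 463 and 72 to 136, and 933 to 2472 genes passing only combined. Where only 1 library of a group was left, it was assumed to vary like the other groups. With the replicate number as a block, the combined comparison had 2999 higher and 2668 lower genes, the steps 4184 and 2153 calls and the classes 430, 288, 458 and 123. The cause of these shifts was not tested beyond what each alternative removes.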

Other observations

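Mitochondrially encoded transcripts fell for 12 of 13 in the treatment step, and the combined comparison had 3 higher and 7 lower. mt-Atp6 stood apart from the other members, with log2 fold changes of 2.49 in the genotype step, -0.21 in the treatment step and 2.29 combined.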
